A study of Mus musculus with 22 samples.

Results

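The machinery that drives G1 was followed through RNA of its cyclins, its kinases and 1 activating phosphatase in NIH/3T3 cells, an established mouse fibroblast line. The set holds 9 genes taken by symbol: the D-type cyclins Ccnd1, Ccnd2 and Ccnd3, their partners Cdk4 and Cdk6, the E-type cyclins Ccne1 and Ccne2, their partner Cdk2, and Cdc25a. All 9 were among the 11208 genes of the table of normalized counts that the authors deposited. One cell line carried a stably integrated construct for doxycycline-inducible E2F1, and the other carried the matching empty vector (EV). Both lines had been starved for 48 h in 0.25% serum before any stimulus. The E2F1 line and the EV line were sampled at 0, 2, 6 and 12 h of 500 ng/ml doxycycline, and the EV line was also sampled at 2, 6 and 12 h after addition of 10% serum. The EV libraries at 0 h are the starting point of both EV courses, so those courses share their control. Each of the 11 groups has 2 libraries, 22 in all. The labels do not say whether replicates came from separate cultures or whether either line is a clone, so p-values measure only the spread between these libraries.

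A cyclin-dependent kinase is active only while a cyclin is bound to it. D-type cyclins with Cdk4 or Cdk6 begin the phosphorylation of the retinoblastoma protein, which restrains E2F transcription factors, and growth factors in serum are a classical inducer of D-type cyclins in fibroblasts. Cyclin E with Cdk2 continues that phosphorylation toward S phase, the E-type cyclin genes are textbook E2F targets, and Cdc25a removes inhibitory phosphates from Cdk2.

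The normalized counts of a library summed to between 34014608 and 46057140, and the highest sum belonged to serum at 2 h. The least expressed gene averaged 99.6 normalized counts. Over all genes, the median difference between replicates of a group was at least 2.72 times the counting noise reckoned from such values. That ratio was not computed for single members. All 11 fibroblast markers examined were in the table, while 0 of 4 epithelial, 0 of 2 leukocyte and 0 of 2 endothelial markers were. Libraries at 2 h lay between the lines on 9 genes. Those genes were at least 8-fold higher in E2F1 than in EV cells at 0, 6 and 12 h of doxycycline, a rule chosen after the data were seen. In the E2F1 libraries at 2 h they lay at 63.5% and 56.9% of the way from the EV to the E2F1 level at 0 h. The same genes lay at 14.5% and 12.7% in EV doxycycline libraries at 2 h and at 10.4% and 13.6% in serum libraries at 2 h. In other E2F1 libraries the value was 85.0% to 113%, and in other EV libraries -1.12% to 1.23%. The rule and the 0 h scale hold doxycycline libraries at 0, 6 and 12 h near these ends. Serum libraries entered neither, and at 6 and 12 h they lay at -1.12% to -0.789%. The part of the intermediate levels in the results at 2 h, which rest wholly on the 2 h libraries, was not tested. Without the 3 groups at 2 h, E2F1 6 h lost the calls for Cdk4 (adjusted p = 0.0755) and Cdk6 (adjusted p = 0.067) and gained Ccnd1 as lower (-0.53, adjusted p = 0.0489), so its count went from 7 to 6. E2F1 12 h against 6 h lost Ccnd3 and Cdk6 and went from 4 members to 2, serum 12 h against 6 h lost Cdk6, and EV doxycycline at 12 h lost Ccne1 and gained Ccnd1 as lower. Without the 2 h doxycycline groups alone, E2F1 6 h lost Cdk4 and Cdk6 and went from 7 members to 5.

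The mouse E2f1 gene in the E2F1 line read 1703 and 1637 normalized counts at 0 h, 1535 and 1755 at 2 h, 3806 and 3602 at 6 h, and 2683 and 2845 at 12 h. Its log2 change at 6 h was 1.15 (SE 0.11, adjusted p = 9.61e-08) and exceeded the EV doxycycline change by 1.32 (adjusted p = 3.38e-06). Whether transcripts of the construct are counted in this row is not stated. The row therefore cannot tell the construct from the cell's own gene, and its level does not by itself check the label at any time. Serum also moved the gene, down to 802 and 740 at 2 h (adjusted p = 5.76e-08) and up to 4615 and 4247 at 12 h (adjusted p = 4.12e-09).

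Both stimuli raised cyclin E, Cdk2 and Cdc25a RNA, but the D-type cyclins parted. E2F1 induction raised Ccne1 and Ccne2 by 16.6-fold and 19.8-fold at 6 h and raised Ccnd3, while Ccnd2 fell by 12 h. Serum raised Ccnd2 from 2 h and Ccnd1 from 6 h, and brought Ccne1, Ccne2 and Cdk2 to their highest serum levels at 12 h. Doxycycline in the EV line raised none of the 9 genes past the threshold. In bulk RNA a change per cell and a change in the share of cells that express a gene cannot be told apart. A change counts as passing at an adjusted p of at most 0.05 in limma's moderated test over all genes.

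**Figure D1:**
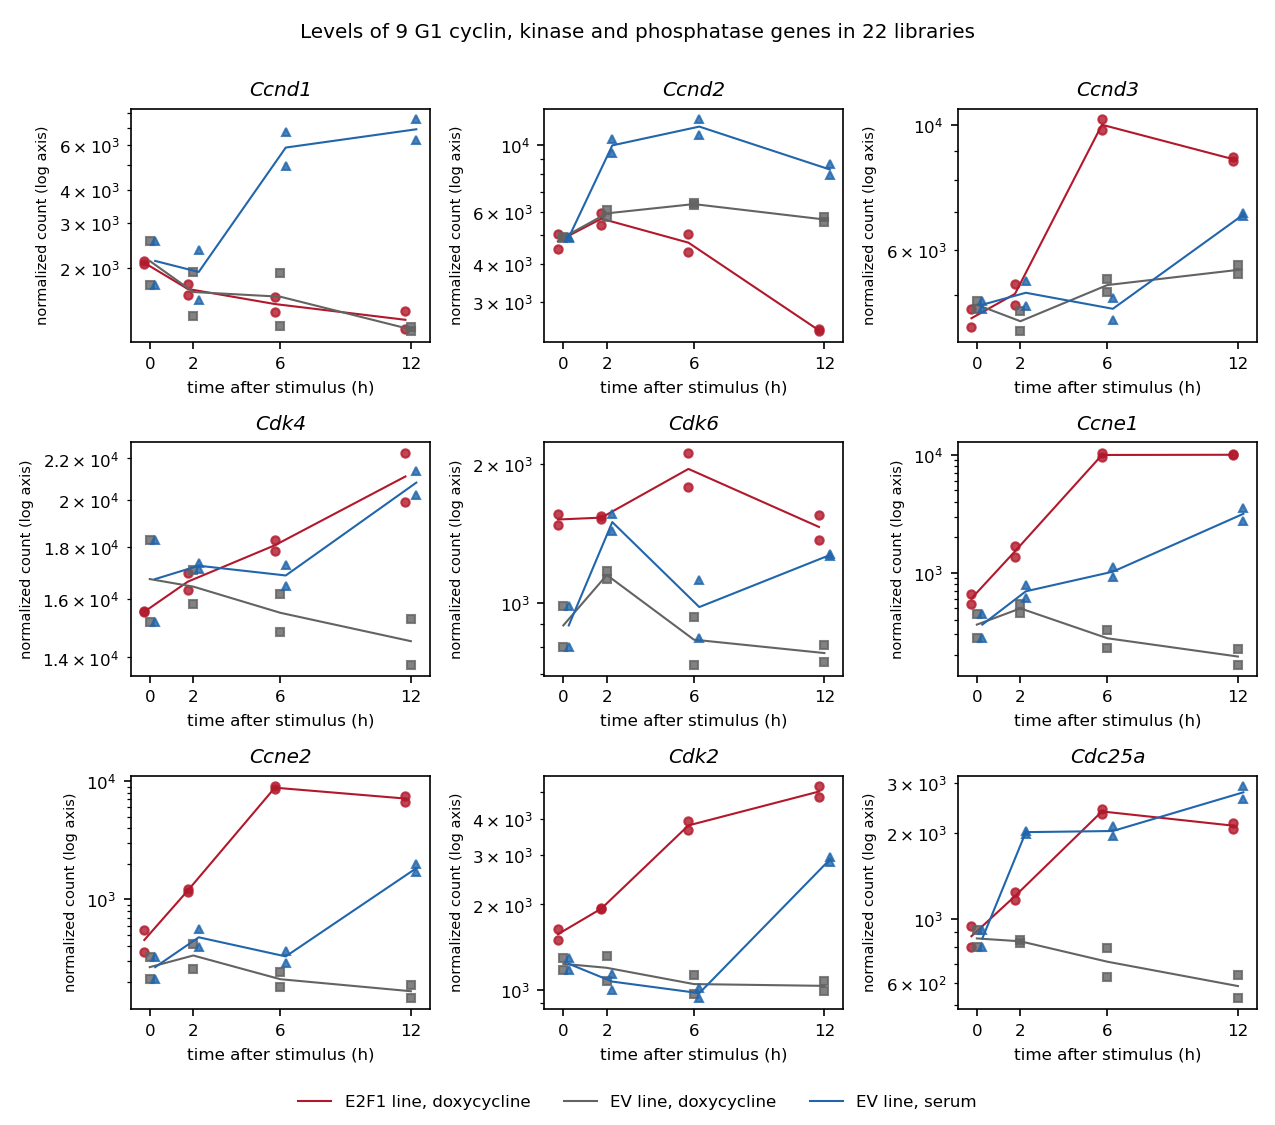
Normalized counts (log axis) of the 9 genes in each of the 22 libraries against time after stimulus (h). Points are libraries, lines join group means, and the EV libraries at 0 h start both EV courses. Ccne1 and Ccne2 in the E2F1 line at 6 and 12 h lie above every other library, and Ccnd1 is high only in serum at 6 and 12 h.

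In the E2F1 line 2 of 9 members passed at 2 h, Ccne1 and Ccne2, where 1.86% of all genes passed. At 6 h 7 of 9 rose (all but Ccnd1 and Ccnd2), where 51.7% of all genes passed in either direction. Ccnd1 at 6 h, with a log2 value of -0.53 against 0 h, missed the threshold (adjusted p = 0.069) but passed after quantile normalization, with equal totals and under 2 other alternatives of 14 (adjusted p from 0.00147 to 0.249). At 12 h 8 of 9 passed beside 61.5% of all genes, with Ccnd3, Cdk4, Ccne1, Ccne2, Cdk2 and Cdc25a higher and Ccnd1 and Ccnd2 lower. In the EV line 0 of 9 members passed in limma at 2 h of doxycycline, where 7.35% of genes passed, and 0 of 9 at 6 h, where 0.134% did. At an unadjusted p under 0.05 the count was 3 of 9 at both times. At 12 h Ccne1 and Cdc25a were lower, 2 of 9 beside 4.17% of all genes.

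Serum passed the test in 5 of 9 members at 2 h (Ccnd2, Cdk6, Ccne1, Ccne2 and Cdc25a, all higher), beside 70.9% of all genes. At 6 h 5 of 9 passed beside 67.5% of all genes, with Ccnd1, Ccnd2, Ccne1 and Cdc25a higher and Cdk2 lower. By 12 h 9 of 9 were higher, where 65.7% of all genes had passed in either direction. With rises and falls pooled, the member shares at 2 and 6 h of serum are below the background. Among rises alone the order is reversed. After 2 h of serum 5 of 9 members had risen, beside 4200 of 11208 genes. After 6 h it was 4 of 9 members, beside 4093 genes. Neither gap was tested, and each rests on only 9 members.

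**Figure D2:**
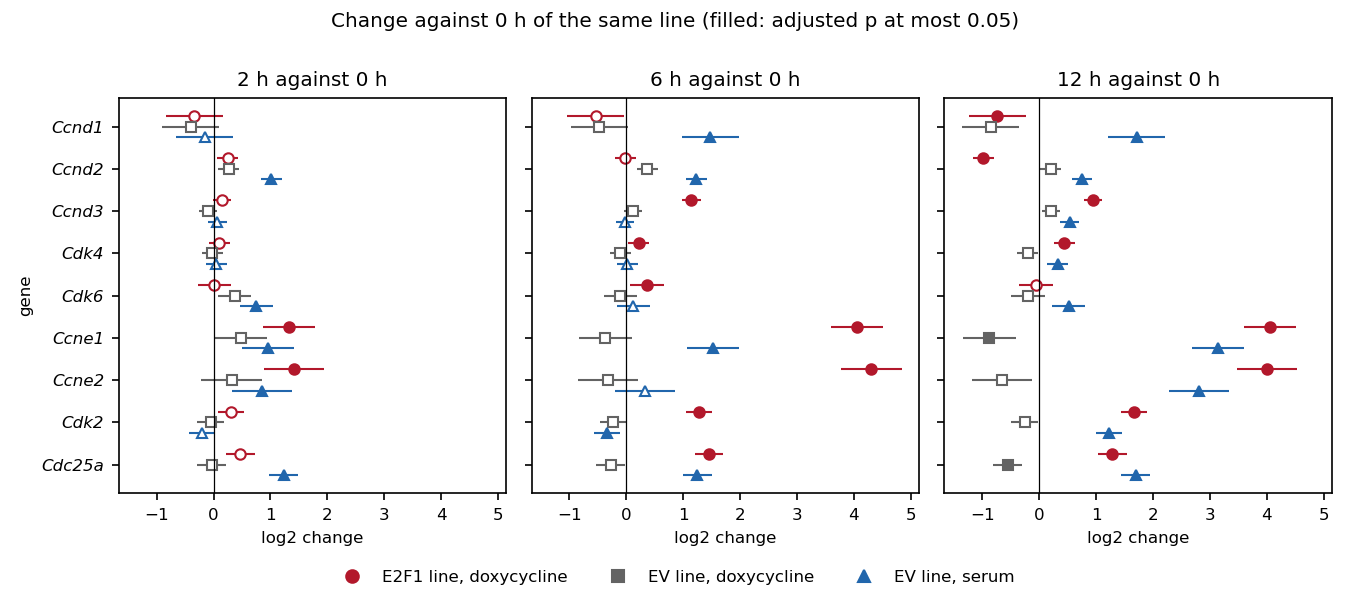
Log2 change of each gene against 0 h of the same line at 2, 6 and 12 h, with 95% intervals from limma (2 libraries per group). Filled symbols have an adjusted p of at most 0.05. At 12 h E2F1 induction and serum move 6 of the genes up together, while Ccnd1 and Ccnd2 go opposite ways. Ccnd1 in EV doxycycline reads -0.86 at 12 h (adjusted p = 0.0502).

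Ccnd1, the D-type cyclin best known as a growth factor sensor, rose in serum at 6 and 12 h. In EV cells it read 1724 and 2535 normalized counts at 0 h, 2357 and 1503 after 2 h of serum, 6760 and 4971 at 6 h, and 7563 and 6251 at 12 h. Both later serum groups lay above every other library of the series, while 2 h overlapped 0 h. The log2 change was 1.47 (SE 0.24, adjusted p = 2.76e-05) at 6 h and 1.72 (adjusted p = 5.58e-06) at 12 h.

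Under E2F1, Ccnd1 went the other way: 2064 and 2124 normalized counts at 0 h, 1739 and 1577 at 2 h, 1549 and 1349 at 6 h, and 1360 and 1157 at 12 h. The fall of 0.74 on the log2 scale at 12 h passed (adjusted p = 0.0121), but lost its call without replicate 2 of the 0 h or of the 12 h group (adjusted p = 0.0548 and 0.0861, within 1.56e-05 to 0.0861 over all alternatives). EV cells in doxycycline stood at 1134 and 1176 at 12 h, a log2 change of -0.86 that missed the threshold (adjusted p = 0.0502). The 2 doxycycline changes at 12 h differed by 0.12, with an interval of -0.59 to 0.83, so no difference between the lines was detectable for Ccnd1. Ccnd1 (ENSMUSG00000070348.5) lies at chr7:144929931-144939925 on the minus strand, and its exons overlap those of LTO1 on the other strand. LTO1 did not move with it in serum, where its log2 change at 12 h was -0.10 (adjusted p = 0.476).

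Ccnd2, another D-type cyclin, answered serum within 2 h and was the member that E2F1 lowered most. Serum took it from 4911 and 4926 normalized counts at 0 h to 9440 and 10524 at 2 h, 10851 and 12216 at 6 h, and 7957 and 8629 at 12 h. Every serum library was above every doxycycline library of either line. It gained 1.02 on the log2 scale by 2 h (SE 0.09, adjusted p = 6.27e-09), 1.23 by 6 h (adjusted p = 9.15e-10) and 0.75 by 12 h (adjusted p = 6.04e-07), and the drop from 6 to 12 h of 0.47 also passed (adjusted p = 0.000274).

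In the E2F1 line Ccnd2 read 5047 and 4502 normalized counts at 0 h, 5415 and 5951 at 2 h, 5043 and 4410 at 6 h, and 2388 and 2428 at 12 h. The last 2 libraries are the lowest of all 22. Ccnd2 thus fell by 0.98 on the log2 scale at 12 h (SE 0.09, adjusted p = 2.62e-08), and nearly all of it came after 6 h, with a change of -0.97 from 6 to 12 h (adjusted p = 1.25e-06). EV cells in doxycycline kept 5761 and 5535 at 12 h. The lines' doxycycline changes differed by -1.18 (SE 0.12, adjusted p = 3.91e-07) at 12 h. At 6 h the difference was -0.39 (adjusted p = 0.0208), and that call was lost without E2F1 0 h replicate 1, E2F1 6 h replicate 2 or EV 6 h replicate 2 (adjusted p = 0.0992, 0.104 and 0.0543, within 0.000376 to 0.104 over all alternatives). The gene (ENSMUSG00000000184.12, chr6:127125162-127152193, minus strand) shares exonic sequence with the antisense genes Gm43126 and 9330179D12Rik, neither of which is in the table.

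Ccnd3 was the D-type cyclin that rose with E2F1. Its normalized counts were 4372 and 4707 at 0 h, 5233 and 4797 at 2 h, 10261 and 9794 at 6 h, and 8629 and 8799 at 12 h of induction. The 4 libraries at 6 and 12 h are above all 18 others. The log2 change was 1.14 (SE 0.08, adjusted p = 8.73e-10) at 6 h and 0.94 (adjusted p = 9.17e-09) at 12 h.

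Serum left Ccnd3 at 4934 and 4503 normalized counts at 6 h, which overlaps 4874 and 4721 at 0 h, and brought it to 6974 and 6908 at 12 h, which is 0.53 higher on the log2 scale (SE 0.08, adjusted p = 7.53e-06). The change at 6 h, -0.03 (adjusted p = 0.783), became a called fall after quantile normalization (-0.30, adjusted p = 0.00381) and after scaling to equal totals (-0.24, adjusted p = 0.0157). EV cells in doxycycline ranged from 4300 to 5637 over the course and passed at no time. Ccnd3 (ENSMUSG00000034165.16, chr17:47505051-47599691, plus strand) overlaps exons of Bysl on the other strand, and Ccnd3-ps is a processed pseudogene. Bysl rose in serum by 1.94 at 6 h (adjusted p = 1.23e-10), when Ccnd3 did not pass, and changed by -0.26 in the E2F1 line at 12 h (adjusted p = 0.0644). Whether counting used strand is not stated, so reads of such overlapping pairs cannot be told apart.

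Of the 2 kinases that the D-type cyclins activate, Cdk4 moved little. In the E2F1 line Cdk4 read 15507 and 15556 normalized counts at 0 h, 17830 and 18299 at 6 h, and 19944 and 22295 at 12 h. Serum brought it from 15186 and 18273 to 21391 and 20261 at 12 h, a range that overlaps the E2F1 one. EV cells in doxycycline ended at 13764 and 15292. The log2 rise at 12 h was 0.44 (SE 0.09, adjusted p = 0.000291) with E2F1 and 0.32 (adjusted p = 0.0038) with serum, and the 2 differed by 0.12, with an interval of -0.14 to 0.38.

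Cdk4's serum rise fell short of the threshold after quantile normalization (0.17, adjusted p = 0.0852), among the groups compared alone (adjusted p = 0.0527) and without EV 0 h replicate 1 (0.19, adjusted p = 0.0982), within 0.000475 to 0.0982 over all alternatives. The smaller E2F1 rise at 6 h, 0.22 (adjusted p = 0.0462), was lost under 9 of 14 alternatives, among them both other scalings and leaving out any 1 of its 4 libraries, with adjusted p from 0.0265 to 0.318. At 2 and 6 h of serum Cdk4 did not pass, with log2 changes of 0.05 and 0.02, but was lower after quantile normalization (-0.48, adjusted p = 5.33e-05, and -0.35, adjusted p = 0.00116) and after scaling to equal totals (-0.33, adjusted p = 0.00215, and -0.20, adjusted p = 0.0479). Against EV doxycycline the E2F1 change of Cdk4 was larger by 0.64 at 12 h (SE 0.12, adjusted p = 0.000337). Cdk4 (ENSMUSG00000006728.12) lies at chr10:127063534-127067920 on the plus strand and overlaps exons of Tspan31, which fell by 0.80 in the E2F1 line (adjusted p = 1.5e-07) and by 0.72 in serum (adjusted p = 4.44e-07) at 12 h.

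Cdk6, the other D-type partner, differed between the lines before any stimulus. It read 1560 and 1475 normalized counts in the E2F1 line at 0 h and 802 and 983 in the EV line, a log2 difference of 0.77 (SE 0.14, adjusted p = 0.00143). Serum lifted it to 1562 and 1434 at 2 h (0.75, adjusted p = 0.000106), with 1121 and 836 at 6 h and 1261 and 1279 at 12 h (0.52, adjusted p = 0.00369, lost without EV 0 h replicate 1 at 0.37 and adjusted p = 0.0663, within 0.00224 to 0.0663 over all alternatives). Against 0 h the serum course therefore passed at 2 and 12 h but not at 6 h between them. At 2 h of doxycycline EV cells read 1127 and 1171, also above 0 h (0.37, adjusted p = 0.118). Serum at 2 h exceeded doxycycline at 2 h by 0.38 (adjusted p = 0.0232), a difference that equal totals turned to -0.01.

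With E2F1, Cdk6 stood at 2122 and 1789 normalized counts at 6 h and 1552 and 1372 at 12 h, and only 6 h passed (0.36, adjusted p = 0.0393). That call was lost under 8 of 14 alternatives, among them both other scalings and leaving out either 0 h library or 6 h replicate 1, with adjusted p from 0.0168 to 0.286. Per kilobase of exon Cdk6 was also the scarcer kinase: Cdk4 stood 80.8 times higher in EV cells and 44.1 times higher in E2F1 cells at 0 h. Exonic length here is the union over all annotated transcripts, which for Cdk6 (ENSMUSG00000040274.11, chr5:3341485-3531008, plus strand) is 14.0 kb against 3.25 kb for Cdk4.

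The E-type cyclins carried the largest changes of the set at 12 h of both courses. Ccne1 (ENSMUSG00000002068.16, chr7:38097984-38107534, minus strand, no overlapping gene) rose in the E2F1 line from 666 and 544 normalized counts at 0 h to 1366 and 1673 at 2 h, 10461 and 9521 at 6 h, and 9972 and 10090 at 12 h. The groups at 0, 2 and 6 h do not overlap, while 6 and 12 h do. The log2 change was 1.33 (SE 0.22, adjusted p = 0.00368) at 2 h, 4.05 (adjusted p = 7.81e-11) at 6 h and 4.06 (adjusted p = 8.75e-11) at 12 h. The call at 2 h ended without replicate 2 of the 0 h or of the 2 h group (1.18 each, adjusted p = 0.105 and 0.0714, within 0.000115 to 0.105 over all alternatives). Its difference from the EV doxycycline change at 2 h was 0.84, with an interval of 0.19 to 1.49 before adjustment, and missed the threshold after adjustment over all genes (adjusted p = 0.45).

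Serum moved Ccne1 in steps, from 281 and 445 normalized counts at 0 h to 785 and 607 at 2 h, 1128 and 915 at 6 h, and 3569 and 2763 at 12 h. None of these groups overlaps the next. On the log2 scale the gene rose by 0.96 at 2 h (SE 0.22, adjusted p = 0.000697), by 1.52 at 6 h (adjusted p = 7.14e-06) and, at its highest, by 3.15 at 12 h (adjusted p = 1.33e-09). At 2 h of doxycycline EV cells read 454 and 543, also above 0 h, a log2 change of 0.49 that missed the threshold (adjusted p = 0.187). Serum at 2 h exceeded doxycycline at 2 h by 0.47, which missed the threshold as well (adjusted p = 0.0635). EV cells in doxycycline drifted to 165 and 224 at 12 h, a log2 change of -0.88 (adjusted p = 0.0291) that 5 of 14 alternatives ended, among them leaving out EV 0 h replicate 2 or 12 h replicate 1, with adjusted p from 0.004 to 0.514.

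Ccne2, the second E-type cyclin, began in the E2F1 line at 546 and 361 normalized counts at 0 h and read 1150 and 1227 at 2 h, 9083 and 8538 at 6 h, and 7548 and 6708 at 12 h. All 4 libraries at 6 and 12 h stand above every library of the EV line. The log2 change was 1.42 (SE 0.25, adjusted p = 0.0063) at 2 h, 4.31 (adjusted p = 1.94e-10) at 6 h and 4.00 (adjusted p = 5.5e-10) at 12 h. The first of these ended without E2F1 0 h replicate 2 (1.12, adjusted p = 0.159), 2 h replicate 1 (adjusted p = 0.061) or 2 h replicate 2 (adjusted p = 0.0759), within 0.000383 to 0.159 over all alternatives. The difference from EV doxycycline at 2 h, 1.10 (interval 0.35 to 1.85), likewise missed the threshold once adjusted (adjusted p = 0.318).

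In serum Ccne2 passed at 2 and 12 h but not at 6 h. It read 211 and 323 normalized counts at 0 h, 560 and 395 at 2 h, 369 and 289 at 6 h, which overlaps 0 h, and 1974 and 1697 at 12 h. The log2 change was 0.85 at 2 h (SE 0.25, adjusted p = 0.00593) and 2.80 at 12 h (adjusted p = 2.95e-08), and the step from 6 to 12 h was 2.48 (adjusted p = 5.29e-07). Scaling each library to the same total ended the call at 2 h (0.47, adjusted p = 0.107), as did leaving out EV 0 h replicate 1 or serum 2 h replicate 1 (adjusted p = 0.109 and 0.0924, within 0.000413 to 0.109 over all alternatives). At 2 h of doxycycline EV cells read 415 and 255, and serum at 2 h exceeded them by 0.53, short of the threshold (adjusted p = 0.0715). Ints8, whose exons overlap Ccne2 (ENSMUSG00000028212.16, chr4:11191351-11204779, plus strand) on the other strand, changed by -0.31 in the E2F1 line (adjusted p = 0.00603) and by 0.27 in serum (adjusted p = 0.0135) at 12 h, calls that 1 and 4 of 14 alternatives ended.

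In the authors' deposited tables of changes against 0 h, every gene listed has a log2 change of at least 2 in size and an adjusted p of at most 0.05. Ccne1 and Ccne2 are the only members listed. The authors' deposited tables give them log2 changes of 4.08 and 4.34 at 6 h of E2F1, 4.07 and 4.01 at 12 h of E2F1, and 3.17 and 2.83 at 12 h of serum.

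Cdk2, the kinase of the E-type cyclins, read higher at each later time of the E2F1 course and passed against 0 h at 6 and 12 h. Normalized counts were 1641 and 1500 at 0 h, 1925 and 1944 at 2 h, 3927 and 3675 at 6 h, and 4780 and 5231 at 12 h, with no overlap between any of these groups. The log2 change at 2 h, 0.30, missed the threshold (adjusted p = 0.191), as did its difference from EV doxycycline (0.35, adjusted p = 0.581). Cdk2 rose by 1.28 on the log2 scale at 6 h (SE 0.11, adjusted p = 2.49e-08) and 1.67 at 12 h (adjusted p = 8.71e-10). The step from 6 to 12 h, 0.40 (adjusted p = 0.0097), lost its call without 6 h replicate 2 or 12 h replicate 2 (adjusted p = 0.0747 and 0.0871, within 0.00464 to 0.0871 over all alternatives).

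With serum Cdk2 was late: 1170 and 1300 normalized counts at 0 h, 1139 and 999 at 2 h, 1014 and 932 at 6 h, and 2931 and 2833 at 12 h. The value at 6 h was below 0 h by 0.34 on the log2 scale (adjusted p = 0.0103), a call that ended without EV 0 h replicate 2 (adjusted p = 0.0925), without serum 6 h replicate 2 (adjusted p = 0.077) and among the groups compared alone (adjusted p = 0.0589), within 0.000391 to 0.0925 over all alternatives. By 12 h the log2 change was 1.22 (SE 0.11, adjusted p = 2.86e-08). Cdk2 (ENSMUSG00000025358.16, chr10:128697939-128705031, minus strand) shares exonic sequence with Pmel, which is not in the table.

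Cdc25a, like Ccnd2 and Ccne1, passed as higher at 2, 6 and 12 h of serum. EV cells held 799 and 916 normalized counts at 0 h, 1994 and 2040 after 2 h of serum, 1956 and 2115 at 6 h, and 2921 and 2638 at 12 h. The log2 change was already 1.24 at 2 h (SE 0.12, adjusted p = 3.78e-08) and reached 1.70 at 12 h (adjusted p = 1.66e-09). In the E2F1 line the counts were 944 and 802 at 0 h, 1167 and 1243 at 2 h, 2434 and 2331 at 6 h, and 2177 and 2075 at 12 h. The value at 2 h did not overlap 0 h but missed the threshold (0.47, adjusted p = 0.0545), and 6 h and 12 h passed at 1.45 (adjusted p = 1.53e-08) and 1.29 (adjusted p = 5.37e-08). EV cells in doxycycline went down to 640 and 529 at 12 h, a log2 change of -0.56 (adjusted p = 0.0129) that 3 of 14 alternatives ended, among them leaving out EV 0 h replicate 2 or 12 h replicate 2, with adjusted p from 0.00954 to 0.273. Cdc25a (ENSMUSG00000032477.14) lies at chr9:109875579-109893895 on the plus strand and hosts Mir7089.

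Promoter sequence from RefSeq (GRCm38.p6) was at hand for 6 of the 9 genes, and Ccnd1, Ccnd2 and Ccne2 had no entry. The windows of 300 bases, 250 of them before the start, were searched on both strands for 6-letter E2F core motifs (TCCCGC with its reverse complement GCGGGA and also TGGCGC with its reverse complement GCGCCA), for 7-letter versions (TTCCCGC and also TTGGCGC besides TTGCCGC together with TTCGCGC, and their reverse complements, which can overlap the 6-letter ones) and for the E-box CACGTG. Of 32851 promoter windows of the same length, 27.7% hold a 6-letter motif, 9.57% a 7-letter motif and 7.15% an E-box. A match describes the letters only. The 3 genes shown first rose with E2F1 by 6 h, and Cdk4 rose least of those called higher at 12 h. Ccnd3, which also rose by 6 h, and Cdk6 are described below without sequence. No link between motif and response was tested. Each line gives the 250 bases before the RefSeq start, 5′ to 3′ on the gene's strand, with 6-letter E2F motifs in capitals for Ccne1, Cdk2 and Cdc25a and E-boxes in capitals for Cdk4. Ccne1 is at chr7:38107491-38107740 (minus), Cdk2 at chr10:128705052-128705301 (minus), Cdc25a at chr9:109875329-109875578 (plus) and Cdk4 at chr10:127063285-127063534 (plus).
Ccne1: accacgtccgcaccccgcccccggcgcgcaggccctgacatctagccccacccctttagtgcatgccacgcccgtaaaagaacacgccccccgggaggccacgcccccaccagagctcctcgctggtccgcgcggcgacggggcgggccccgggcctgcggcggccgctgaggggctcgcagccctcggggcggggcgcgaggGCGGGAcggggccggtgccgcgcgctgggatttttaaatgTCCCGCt
Cdk2: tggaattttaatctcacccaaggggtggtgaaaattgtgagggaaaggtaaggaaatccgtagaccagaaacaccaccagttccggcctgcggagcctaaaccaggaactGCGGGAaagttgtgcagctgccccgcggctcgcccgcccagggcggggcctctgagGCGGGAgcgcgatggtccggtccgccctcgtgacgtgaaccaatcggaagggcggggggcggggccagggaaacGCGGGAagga
Cdc25a: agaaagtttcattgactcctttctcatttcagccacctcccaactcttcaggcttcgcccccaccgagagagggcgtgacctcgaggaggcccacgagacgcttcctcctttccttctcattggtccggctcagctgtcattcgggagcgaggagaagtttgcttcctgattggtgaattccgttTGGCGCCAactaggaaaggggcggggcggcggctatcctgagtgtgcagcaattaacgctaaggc
Cdk4: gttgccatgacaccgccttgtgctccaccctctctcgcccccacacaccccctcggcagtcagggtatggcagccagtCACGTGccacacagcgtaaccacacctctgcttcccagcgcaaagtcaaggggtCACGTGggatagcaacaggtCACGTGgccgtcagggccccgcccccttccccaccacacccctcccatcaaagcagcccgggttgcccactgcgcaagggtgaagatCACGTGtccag

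Counted back from the start, the Ccne1 motifs begin at 47 and 7 bases, both in capitals above, and no 7-letter motif was found. The Cdk2 promoter has 6-letter motifs beginning at 140, 84 and 10 bases before the start, and those at 140 and 10 extend to a 7-letter form. A further 7-letter match, GCGGCAA, lies 40 bases after the start, outside the printed stretch. In the Cdc25a promoter 2 motifs on opposite strands overlap at 65 and 63 bases and print as a single run of capitals, and both extend to 7-letter forms, at 66 and 63 bases. Cdk4 has none of the E2F forms and 4 E-boxes, at 172, 118, 98 and 11 bases, a number reached by 8 of all windows (0.0244%). The Cdk6 window holds 6-letter E2F motifs at 11 bases and 1 base and an E-box at 220 bases before the start, and neither Ccnd3 window holds any of the motifs.

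The next question is whether the E2F1 response exceeds what doxycycline does to the EV line. At 2 h the changes differed in 0 of 9 members by limma (5 at an unadjusted p under 0.05), where 0.143% of all genes differed. At 6 h they differed in 6 of 9 beside 34.5% of genes, with Ccnd3, Ccne1, Ccne2, Cdk2 and Cdc25a higher and Ccnd2 lower. By 12 h Cdk4 was also higher, 7 of 9 beside 50.5%. The differences for Ccne1 were 4.42 at 6 h and 4.93 at 12 h (SE 0.31, adjusted p = 8.16e-09 and 2.15e-09), and those for Ccne2 4.63 and 4.65 (SE 0.36, adjusted p = 2.47e-08 and 1.58e-08). Cdk2 differed by 1.51 and 1.93 (adjusted p = 6.48e-07 and 2.48e-08), Cdc25a by 1.73 and 1.84 (adjusted p = 4.08e-07 and 1.16e-07), and Ccnd3 by 1.03 and 0.74 (adjusted p = 8.1e-07 and 1.83e-05).

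**Figure D3:**
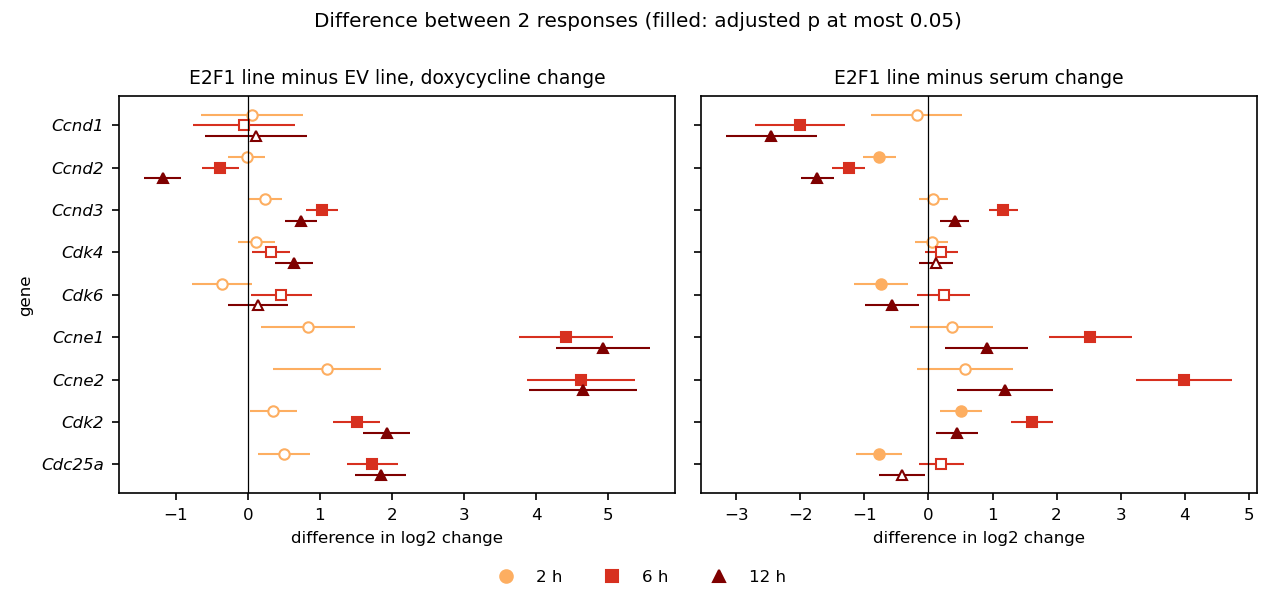
Difference between 2 log2 changes for each gene at 2, 6 and 12 h, with 95% intervals from limma: E2F1 line minus EV line in doxycycline (left) and E2F1 induction minus serum (right). Filled symbols have an adjusted p of at most 0.05. Ccne1 and Ccne2 lie above 4 at 6 and 12 h on the left. Ccnd1 lies at -2.01 and -2.46 at 6 and 12 h on the right, and at -0.06 and 0.12 on the left.

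Set against serum, the change in the E2F1 line at 6 h was larger for cyclin E, Cdk2 and Ccnd3 and lower for Ccnd1 and Ccnd2. The 2 responses differed in 4 of 9 members at 2 h beside 56.7% of all genes (Ccnd2, Cdk6 and Cdc25a lower and Cdk2 higher with E2F1), in 6 of 9 at 6 h beside 57.9%, and in 7 of 9 at 12 h beside 48.8%. The comparison also spans the 2 lines, each against its own 0 h. At 2 h scaling to equal totals ended the calls for Cdk6 (-0.37, adjusted p = 0.126) and Cdc25a (-0.39, adjusted p = 0.0537), and leaving out serum 2 h replicate 2 that for Cdk2 (0.42, adjusted p = 0.0507). At 6 h Ccne2 was higher with E2F1 by 3.99 on the log2 scale (SE 0.36, adjusted p = 3.97e-08), Ccne1 by 2.53 (adjusted p = 1.72e-06), Cdk2 by 1.62 (adjusted p = 9.13e-08) and Ccnd3 by 1.17 (adjusted p = 5.48e-08). At the same time Ccnd1 was lower by a log2 difference of -2.01 (SE 0.34, adjusted p = 6.1e-05) and Ccnd2 by -1.24 (adjusted p = 1.29e-07). The Ccnd1 gap is not particular to the E2F1 line. Its doxycycline change at 6 h differed from that of EV cells by -0.06 (adjusted p = 0.907), and serum exceeded EV doxycycline by 1.95 (adjusted p = 1.05e-06).

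By 12 h the E-type gap had narrowed to 1.19 for Ccne2 (adjusted p = 0.00996) and 0.91 for Ccne1 (adjusted p = 0.0212), and the D-type gap stood at -2.46 for Ccnd1 (adjusted p = 1.12e-05) and -1.74 for Ccnd2 (adjusted p = 6.33e-09). The calls for Ccne1 and for Cdk2 (0.45, adjusted p = 0.0234) ended on leaving out replicate 2 of E2F1 0 h, of E2F1 12 h, of EV 0 h or of serum 12 h, with adjusted p of up to 0.133 and 0.089. That for Ccne2 ended without replicate 2 of E2F1 0 h or of EV 0 h (up to 0.0634). The call for Cdk6 (-0.57, adjusted p = 0.0239) ended without replicate 1 of E2F1 0 h or of EV 0 h, or replicate 2 of E2F1 12 h or of serum 12 h (up to 0.116). Ccnd3 kept a difference of 0.41 (adjusted p = 0.00429) under every alternative run. Cdc25a, at -0.41 (interval -0.77 to -0.05, adjusted p = 0.0544), missed the threshold.

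Serum and doxycycline in the same EV line differed in 3 of 9 members at 2 h beside 67.1% of genes, in 5 of 9 at 6 h beside 65.8%, and in 9 of 9 at 12 h, all higher in serum, beside 70.4% of genes in either direction. Those at 2 h were Ccnd2, Cdk6 and Cdc25a, and those at 6 h Ccnd1, Ccnd2, Ccne1, Ccne2 and Cdc25a, all higher in serum. At 12 h the difference was 4.02 for Ccne1 (SE 0.22, adjusted p = 3.79e-11), 3.46 for Ccne2 (adjusted p = 1.24e-09), 2.57 for Ccnd1 (adjusted p = 2.64e-08) and 2.25 for Cdc25a (adjusted p = 3.28e-11). Cdk6 at 2 h differed by 0.38 (adjusted p = 0.0232), which scaling to equal totals turned to -0.01 (adjusted p = 0.948, within 0.00456 to 0.948 over all alternatives). Calls for Ccne2 at 6 h (0.64, adjusted p = 0.0321) and Ccnd3 at 12 h (0.33, adjusted p = 0.000899) ended under 5 and 1 of 14 alternatives, with adjusted p of up to 0.233 (without EV doxycycline 6 h replicate 1, with serum 6 h replicate 1 also ending it) and 0.0973 (quantile normalization).

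The step from 6 to 12 h was also compared within each course. In the E2F1 line 4 of 9 members changed beside 35.3% of all genes, with Ccnd2, Ccnd3 and Cdk6 lower and Cdk2 higher. With serum 8 of 9 changed beside 39.9%, all higher but Ccnd2. Serum therefore added most of its Ccne2, Ccne1 (1.63, adjusted p = 1.19e-05) and Cdk2 (1.57, adjusted p = 7.81e-09) in this interval, whereas neither E-type cyclin passed between 6 and 12 h of E2F1. The E2F1 calls for Ccnd3 and Cdk6 ended under 10 and 4 of 14 alternatives, among them leaving out any 1 of the 4 libraries for Ccnd3 (adjusted p of up to 0.21) and 6 h replicate 1 or 12 h replicate 2 for Cdk6 (up to 0.222). The serum call for Cdk4 ended without 6 h replicate 2 or 12 h replicate 1 (up to 0.0764), and that for Cdc25a without 12 h replicate 1 (0.0665). That for Cdk6 ended under 7 of 14, among them leaving out 6 h replicate 2 or either 12 h library (up to 0.401).

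Before induction the lines already differed in 4 of 9 members, beside 15.0% of all genes. Besides Cdk6, the E2F1 line was higher in Ccne1 by 0.77 (SE 0.22, adjusted p = 0.0252), in Ccne2 by 0.76 (adjusted p = 0.0488) and in Cdk2 by 0.35 (adjusted p = 0.0407). Those 3 calls were lost among the groups compared alone and without E2F1 0 h replicate 1 or EV 0 h replicate 1, and for Cdk2 also without replicate 2 of either, with adjusted p of up to 0.28, 0.385 and 0.242. Cdk6 passed under every alternative run.

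Because levels between genes compare only per length, normalized counts were divided by exon length, which is a union over transcripts and need not match the isoforms expressed. On that scale the D-type pool held about equal parts in starved EV cells: Ccnd1 29.5%, Ccnd2 34.5% and Ccnd3 36.0%. The pool of the E2F1 line shifted toward Ccnd3, which made up 33.8% and 36.6% of it at 0 h, and on average 58.5% at 6 h and 65.5% at 12 h. In EV cells in doxycycline the Ccnd3 share went from 36.0% at 0 h to 42.7% at 12 h while that of Ccnd1 went from 29.5% to 16.6%. With serum Ccnd2 held the largest share at 2 h (52.0%), and Ccnd1 and Ccnd2 were level at 6 h (41.2% and 41.0%), with Ccnd2 ahead in replicate 2 (45.3% against 36.8%). At 12 h of serum Ccnd1 led with 46.6%. These shares are descriptions with no test.

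**Figure D4:**
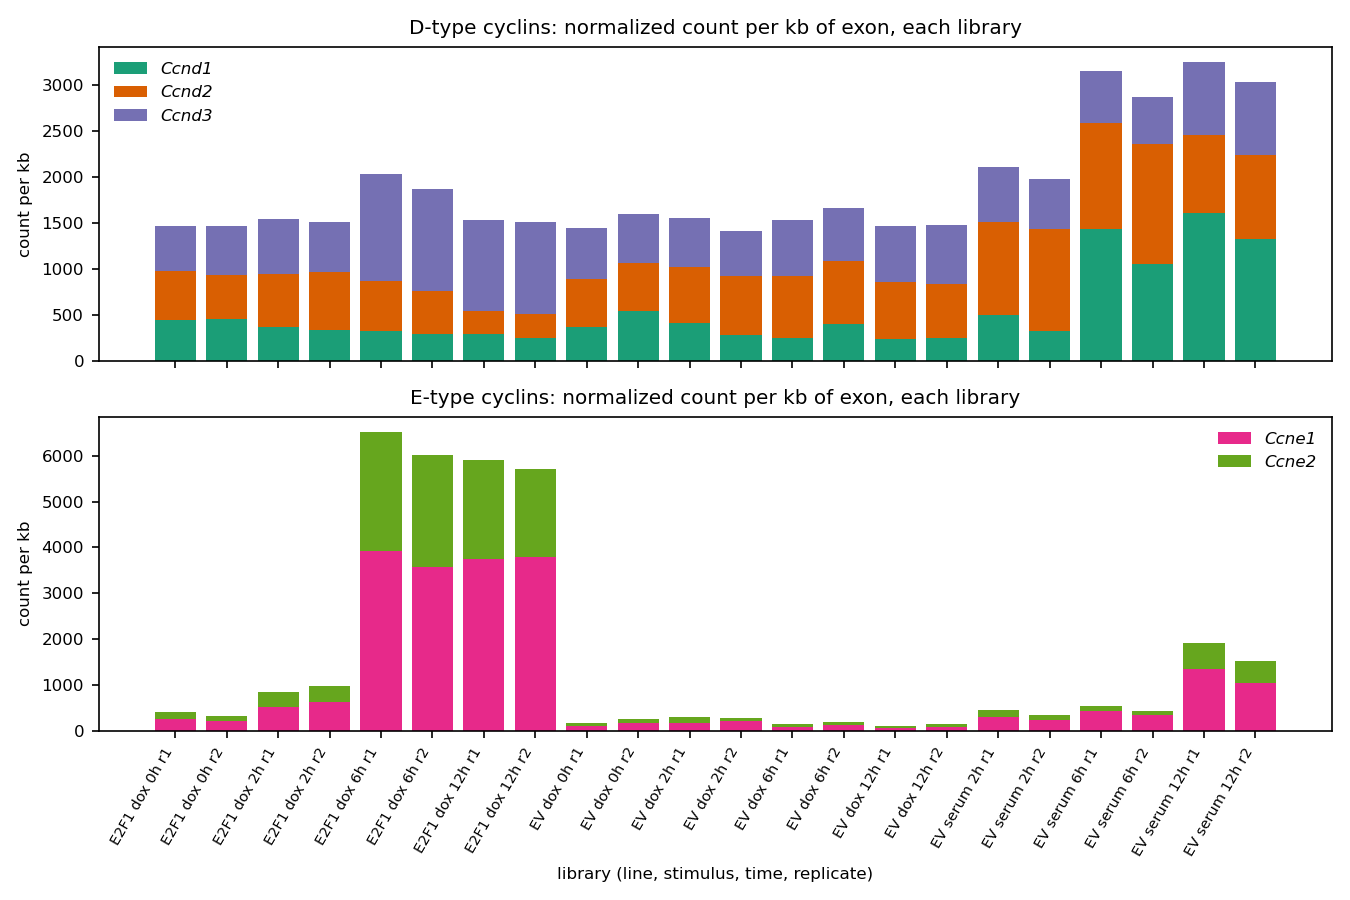
Normalized count per kilobase of exon of the D-type cyclins (top) and E-type cyclins (bottom), stacked for each of the 22 libraries. Ccnd3 fills most of the D-type bar in the E2F1 line at 6 and 12 h, Ccnd1 is the tallest part in 3 of the 4 serum libraries at 6 and 12 h, and E-type bars are tallest in the E2F1 line at 6 and 12 h.

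The ratio of summed E-type to summed D-type RNA per kilobase rose above 1 only under E2F1. In the E2F1 line it was 0.276 and 0.21 at 0 h, 0.546 and 0.647 at 2 h, 3.21 and 3.22 at 6 h, and 3.87 and 3.79 at 12 h. Serum libraries read 0.216 and 0.172 at 2 h, 0.168 and 0.149 at 6 h, and 0.587 and 0.503 at 12 h. EV doxycycline stayed between 0.0703 and 0.196. E-type RNA per kilobase thus exceeded D-type RNA in the 4 E2F1 libraries at 6 and 12 h and in none of the other 18. Within the E-type pool Ccne1 held 59.8% to 66.3% of the group means in doxycycline of either line, and 80.3% at 6 h of serum, when Ccne2 did not pass against 0 h.

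Of a list of 40 other G1/S regulators, 36 were in the table. The list includes E2f1, the induced gene, which is among the rises at 12 h of E2F1 (0.73, adjusted p = 1.65e-05) and of serum (1.43, adjusted p = 4.12e-09). At 12 h of E2F1, 22 rose and 5 fell, where 31.8% of all genes rose and 29.7% fell, and the list's median log2 change was 0.72 against -0.02 over all genes. The largest rises were E2f7 (3.48, adjusted p = 4.25e-10), E2f2 (3.47, adjusted p = 4.06e-06) and E2f8 (3.42, adjusted p = 2.71e-08). E2f7 and E2f8 encode repressors of the E2F family, and E2f2 an activator. The largest falls were Cdk7 (-0.97, adjusted p = 4.2e-07), the catalytic subunit of the CDK-activating kinase, Myc (-0.97, adjusted p = 2.43e-05) and the F-box protein gene Fbxo31 (-0.72, adjusted p = 2.23e-05). In EV cells at 12 h of doxycycline 0 of the 36 rose and 11 fell, beside 84 and 383 of 11208 genes. The E2F1 change was above the EV doxycycline change in 21 and below it in 5, beside 3059 and 2606 of 11208 genes. The single values named here are against 0 h of the E2F1 line, without the EV doxycycline change.

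At 12 h of serum 18 of the 36 rose and 6 fell, where 36.0% of all genes rose and 29.7% fell, with a list median of 0.23 against 0.05 over all genes. The same 3 E2F genes led, E2f8 at 2.55 (adjusted p = 8.49e-07), E2f2 at 2.19 (adjusted p = 0.000439) and E2f7 at 1.92 (adjusted p = 4.07e-07). The largest falls were Rb1 (-0.98, adjusted p = 3.24e-05), which encodes the retinoblastoma protein, Cdkn1b (-0.98, adjusted p = 1.08e-07), which encodes the CDK inhibitor p27, and the pocket protein gene Rbl2 (-0.87, adjusted p = 6.57e-06).

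Rb1 and Cdkn1b went the opposite way with E2F1, and these 2 values were looked up after the serum falls were seen. At 12 h of E2F1 Rb1 rose by 2.34 (adjusted p = 1.26e-09) and Cdkn1b by 1.10 (adjusted p = 2.75e-08), and the 2 responses differed by 3.32 (adjusted p = 4.24e-09) and 2.08 (adjusted p = 3.24e-09). These rises too are against 0 h of the E2F1 line, without the EV doxycycline change. Myc, by contrast, was higher at 12 h of serum by 1.09 (adjusted p = 5.69e-06), a difference between the responses of -2.06 (adjusted p = 5.34e-07).

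Across the 11 group means the genes most like Ccne1 by Pearson correlation of log2 values were Tex30 (0.992), Dhrs13 (0.988), Me2 (0.987), Skp2 (0.986) and Pms2 (0.986). For Ccnd1 they were Bcap29 (0.981), Uqcc2 (0.958), Mrpl15 (0.954), Steap1 (0.95) and Lxn (0.945). Among the members Ccne1 and Ccne2 correlated at 0.98 and Ccne2 and Cdk2 at 0.96, while Ccnd2 and Cdk2 correlated at -0.627. These are descriptions over 11 points that share lines, a 0 h group and library scaling.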

How the data were processed

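Per the labels' protocols, the 22 libraries were made from polyadenylated RNA and read from both ends for 150 bp. FastQC, Trimmomatic, HISAT2, featureCounts, DESeq2 and the build mm10 are named in the submitters' processing notes, with no version, and use of strand and the scaling method are not given in the sources used here. The main table, as deposited by the authors, holds 1 normalized count per gene and library, scaled and rounded before deposit, and was therefore treated as a score and not as raw counts. Further tables hold log2 fold changes as the authors deposited them, and each comes with an adjusted p-value as the authors deposited it.

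Values were taken as log2(value + 1) and fitted with limma 3.58.1 (R 4.3.3), with 11 group means, a mean-variance trend and 11 residual degrees of freedom. The filter (at least 10 in 2 libraries) removed 0 of 11208 genes. Benjamini-Hochberg adjustment ran over all genes in each of the 21 comparisons, with a threshold of 0.05, and intervals are 95%. The code was tested on simulated data. Groups and replicate numbers came from the labels. Coordinates and exon lengths are from GENCODE release M21 on GRCm38 (mm10), to which 10977 of the 11208 gene identifiers matched with version.

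The members and gene lists were chosen with earlier results of these data known. Named genes were all members, the induced gene, the 3 largest called rises and falls of the regulator list at 12 h of each stimulus, and the 5 genes most correlated with Ccne1 and with Ccnd1. Alternatives were quantile normalization, equal library totals, a pseudocount of 8, a replicate block, no trend, no filter, a mean of at least 500, fits without 2 h doxycycline groups or with only the groups compared, leaving out each library, and, chosen after seeing the data, no 2 h groups.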

Additional observations from a re-analysis of the deposited data

Results flagged for a closer look

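The 13 results here are those where the E2F1 and EV lines responded differently to doxycycline by a test of the difference itself (limma, E2F1 change minus EV change on the log2 scale). Values at 6 h come first and those at 12 h after. Ccne1 differed by 4.42 (adjusted p = 8.16e-09) and 4.93 (adjusted p = 2.15e-09), and Ccne2 by 4.63 (adjusted p = 2.47e-08) and 4.65 (adjusted p = 1.58e-08). For Cdk2 the differences were 1.51 (adjusted p = 6.48e-07) and 1.93 (adjusted p = 2.48e-08), and for Cdc25a 1.73 (adjusted p = 4.08e-07) and 1.84 (adjusted p = 1.16e-07). Ccnd3 differed by 1.03 (adjusted p = 8.1e-07) and 0.74 (adjusted p = 1.83e-05). Ccnd2 differed in the other direction, by -0.39 (adjusted p = 0.0208) and -1.18 (adjusted p = 3.91e-07). Cdk4 differed at 12 h by 0.64 (adjusted p = 0.000337).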

How the results depend on the processing

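Of 1245 recomputed values for single genes under settings other than leaving out a library, 1179 kept direction and side of the threshold, 43 lost the call, 17 gained it and 6 changed sign; with 1 library left out the counts were 572, 72, 5 and 7 of 656. Quantile normalization gave 1 member in EV doxycycline at 2 h, 8 in serum at 6 h and 7 in serum against doxycycline at 2 h, and equal totals gave 1 in EV doxycycline at 2 h and 5 in serum against doxycycline at 2 h (0, 5 and 3 members in the main analysis). Fitting only the groups compared gave 4 members for E2F1 at 2 h, 0 for EV doxycycline at 12 h and 1 for the lines at 0 h. Without the trend the last 2 gave 1 and 2, and without the 2 h groups E2F1 12 h against 6 h gave 2. Signs turned for Cdk4 in serum at 2 h (-0.48 by quantiles, -0.33 by equal totals) and 6 h (-0.35 and -0.20), for the Ccnd1 difference between lines at 12 h (-0.012 by quantiles) and for Cdk6 in serum against doxycycline at 2 h (-0.011 by equal totals). Equal totals moved the median log2 change of all genes to -0.34 in serum at 2 h, -0.18 at 6 h and -0.15 in E2F1 cells at 6 h, while the cause of the changed calls was not tested.

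Leaving out single libraries gave 0 to 2 members for E2F1 at 2 h (0 without replicate 2 of either group), 0 to 4 for EV doxycycline at 12 h (4 without 0 h replicate 1 and 0 without 0 h replicate 2), and 4 to 7 for E2F1 minus serum at 12 h (4 without replicate 2 of E2F1 12 h or of serum 12 h). It gave 2 to 6 for serum against doxycycline at 2 h (6 without serum replicate 2), 1 to 4 for E2F1 12 h against 6 h (1 without 12 h replicate 2, 2 without either 6 h library), 5 to 8 for serum 12 h against 6 h (5 without 12 h replicate 1), and 1 to 3 for the lines at 0 h (1 without replicate 1 of either). Signs turned in the ranges -0.084 to 0.18 and -0.12 to 0.15 for Cdk4 in serum at 2 and 6 h, -0.091 to 0.041 for Ccnd3 in serum at 6 h, -0.26 to 0.064 for LTO1 in serum at 12 h, -0.16 to 0.40 for the Ccnd1 difference between lines at 12 h, and -0.014 to 0.25 for the Cdk4 difference between E2F1 and serum at 12 h. A lone library was assumed to vary like the other groups.

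Replicate numbers were not taken to pair the samples, since the labels tie them to nothing shared and the correlations of same-numbered deviations ran from -0.28 to 0.45 over 55 pairs of groups, 18 of them over 0.1. Within the EV line 8 of 21 pairs were over 0.1, so pairing of some groups is possible. With the replicate number as a block, counts of members stayed within 1.5 times the main ones, for example 7 for E2F1 at 6 h and 9 for serum at 12 h, and Ccnd1 in EV doxycycline at 12 h passed (adjusted p = 0.0474). With 2 libraries a group the precision is limited by their number. The median replicate difference over all genes exceeded counting noise in every group, which was not examined for single members.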
